A study of Homo sapiens with 9 samples.

Results

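The HOX genes encode homeodomain transcription factors and lie in 4 clusters, HOXA, HOXB, HOXC and HOXD. They were taken from the deposited transcript counts as every gene named by a cluster letter and a number, without antisense and other noncoding genes, and each was represented by the transcript with the highest total count over the 9 libraries. This gave 38 of 20878 genes: 11 in HOXA on chromosome 7, 9 in HOXB on chromosome 17, 9 in HOXC on chromosome 12 and 9 in HOXD on chromosome 2. HOXB1 was listed in the RPKM table alone, at 0 in all 9 libraries. The libraries came from SW480, a human colon cancer line that lacks full-length APC, the scaffold protein that promotes the breakdown of beta-catenin. The 9 libraries formed 3 groups of 3: parental SW480 cells without a vector or selection (SW480), the SW480 derivative R38.7 with the empty pEF vector (CONTROL), and the SW480 derivative D2.15 with pEF-mycAPC, a myc-tagged APC (APC). Both derivatives, and not the parental cells, were kept in G418, the drug that selects for the vector. The APC cells were plated at a lower density, 2.0 where SW480 and CONTROL had 3.35 in the same unit of cells per plate, and polyadenylated RNA was taken 72 h after plating. Differences of either derivative from SW480 cannot be told apart from effects of the vector and G418. Every group was 1 line, so the transgene, the line and, for APC, the plating density cannot be told apart. The replicates were plates of that line, so the p-values reflect how far plates of a line differed and nothing wider.

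Each HOX protein binds DNA through its homeodomain, often together with TALE cofactors of the PBX, MEIS and PKNOX families. Within a cluster, genes are numbered by position, low-numbered genes being used in anterior and high-numbered genes in posterior parts of the embryo. Genes with the same number in different clusters are paralogues, derived from 1 ancestral gene by duplication of the whole cluster. In the gut, HOX genes pattern the endoderm and the surrounding mesoderm, and the related CDX genes, among them CDX2, maintain intestinal identity and are known activators of HOX genes.

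Library totals ran from 16456738 to 19358025 counts, and 3 counts corresponded to 0.156 to 0.184 CPM, the count scaled to the library total after TMM normalisation. The APC gene stood at 46.6, 49.6 and 51.5 CPM in SW480, at 48.1, 46.3 and 49.4 in CONTROL, and at 150, 146 and 140 in APC. The APC libraries thus lay above all others, with a log2 fold change of 1.56 ± 0.05 (SE) against SW480 (quasi-likelihood test of edgeR, adjusted p = 4.31e-25). Of 8 colon epithelial markers 8 were in the counts, with a summed level of 5400 to 6044 CPM in SW480, 6024 to 6320 in CONTROL and 6206 to 6376 in APC. EPCAM and CDH1, which hold epithelial cells together, stood at means of 49.4 and 7.23 CPM in SW480, 42.4 and 8.73 in CONTROL, and 382 and 133 in APC. The colon epithelial list as a whole was mixed, with 4 higher and 3 lower of 7 tested in APC against SW480, CDX2 (−0.86), KRT19 (−0.28) and KRT18 (−0.09) being lower. Leukocyte and endothelial markers summed to at most 2.58 and 1.52 CPM in any library and fibroblast markers to 11.7 to 18.3 CPM, with PTPRC, COL3A1 and DCN listed at 0 RPKM in each. The part of these markers in the results was not tested. In such bulk RNA, fewer cells that express a gene and less RNA per cell cannot be told apart.

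The HOXB cluster carried most of the HOX RNA, and of the 4 cluster sums that of HOXB differed most between the lines. Levels were compared between genes as RPKM, reads scaled to transcript length and library size. The 9 HOXB genes summed to 335, 299 and 294 RPKM in the SW480 libraries, to 203, 207 and 199 in CONTROL, and to 104, 93.5 and 98.8 in APC. These 3 ranges did not overlap. SW480 replicate 1 was the highest of all. The means were 309 ± 22.4, 203 ± 3.75 and 98.6 ± 5.02 RPKM (SD, n = 3), so the cluster's sum in SW480 was 3.13 times that in APC and 1.52 times that in CONTROL, and CONTROL stood at 2.06 times APC.

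The other clusters differed less in their sums. HOXA summed to 52.4 ± 4.81 RPKM in SW480, 73.0 ± 2.19 in CONTROL and 59.8 ± 0.399 in APC (SD, n = 3), with CONTROL above every library of the other lines. HOXC stood at 27.7 ± 1.80, 30.6 ± 0.597 and 19.0 ± 0.843 RPKM, lowest in APC without overlap. HOXD was nearly level at 16.6 ± 1.30, 17.8 ± 0.550 and 16.2 ± 0.613 RPKM, and its SW480 range overlapped those of CONTROL and APC. As a result the share of all HOX RPKM held by HOXB was 76.2% in SW480, 62.6% in CONTROL and 50.9% in APC, while the share of HOXA was 12.9%, 22.5% and 30.9%. The sum over all 38 genes was 406 ± 30.0, 324 ± 4.62 and 194 ± 5.93 RPKM. No p was computed for these sums, since they are scores over chosen genes.

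**Figure D1:**
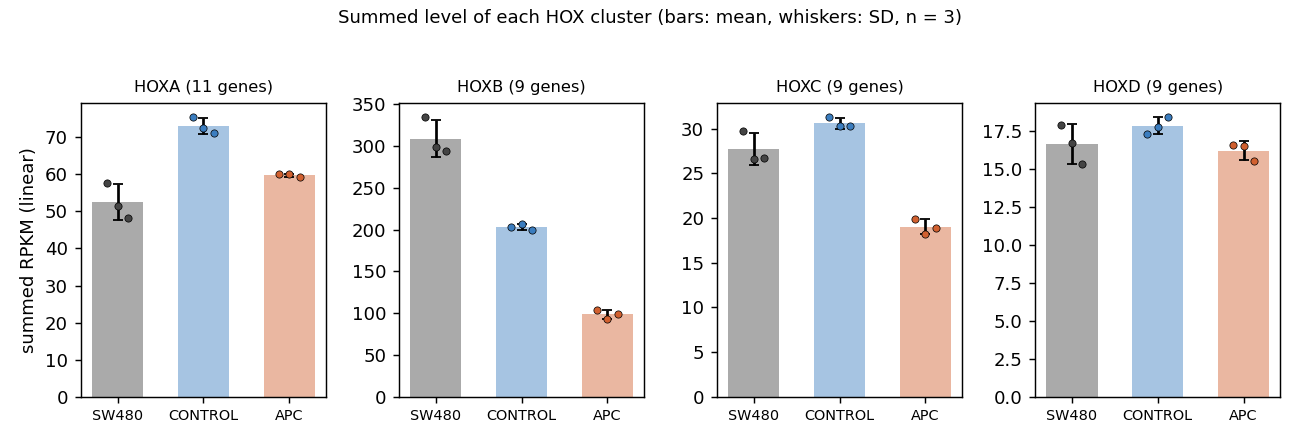
Summed RPKM of the genes of each HOX cluster (linear scale, each panel with its own axis from 0) in SW480, CONTROL and APC; bars are means, whiskers SD and points the 3 libraries of a line. The HOXB points fall into 3 separate ranges, from 294 to 335 in SW480 to 93.5 to 104 in APC, while the HOXD points of the lines lie close together.

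Single genes covered a wide range of levels. At least 1 RPKM was reached by 30 of the 38 genes in SW480, 32 in CONTROL and 28 in APC, and at least 10 RPKM by 9, 10 and 6. HOXB8, which is known for its role in myeloid progenitors, had the highest level in SW480 (82.6 RPKM) and in CONTROL (45.8 RPKM). In APC it stood at 17.6 RPKM, and HOXB6 was first with 22.95 RPKM, followed by HOXB7 with 22.1 RPKM and HOXA9 with 19.6 RPKM. HOXA9 ranked 8 of 38 in SW480, 4 in CONTROL and 3 in APC. HOXA10 went from rank 14 in SW480 to 11 in CONTROL and 6 in APC.

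**Figure D2:**
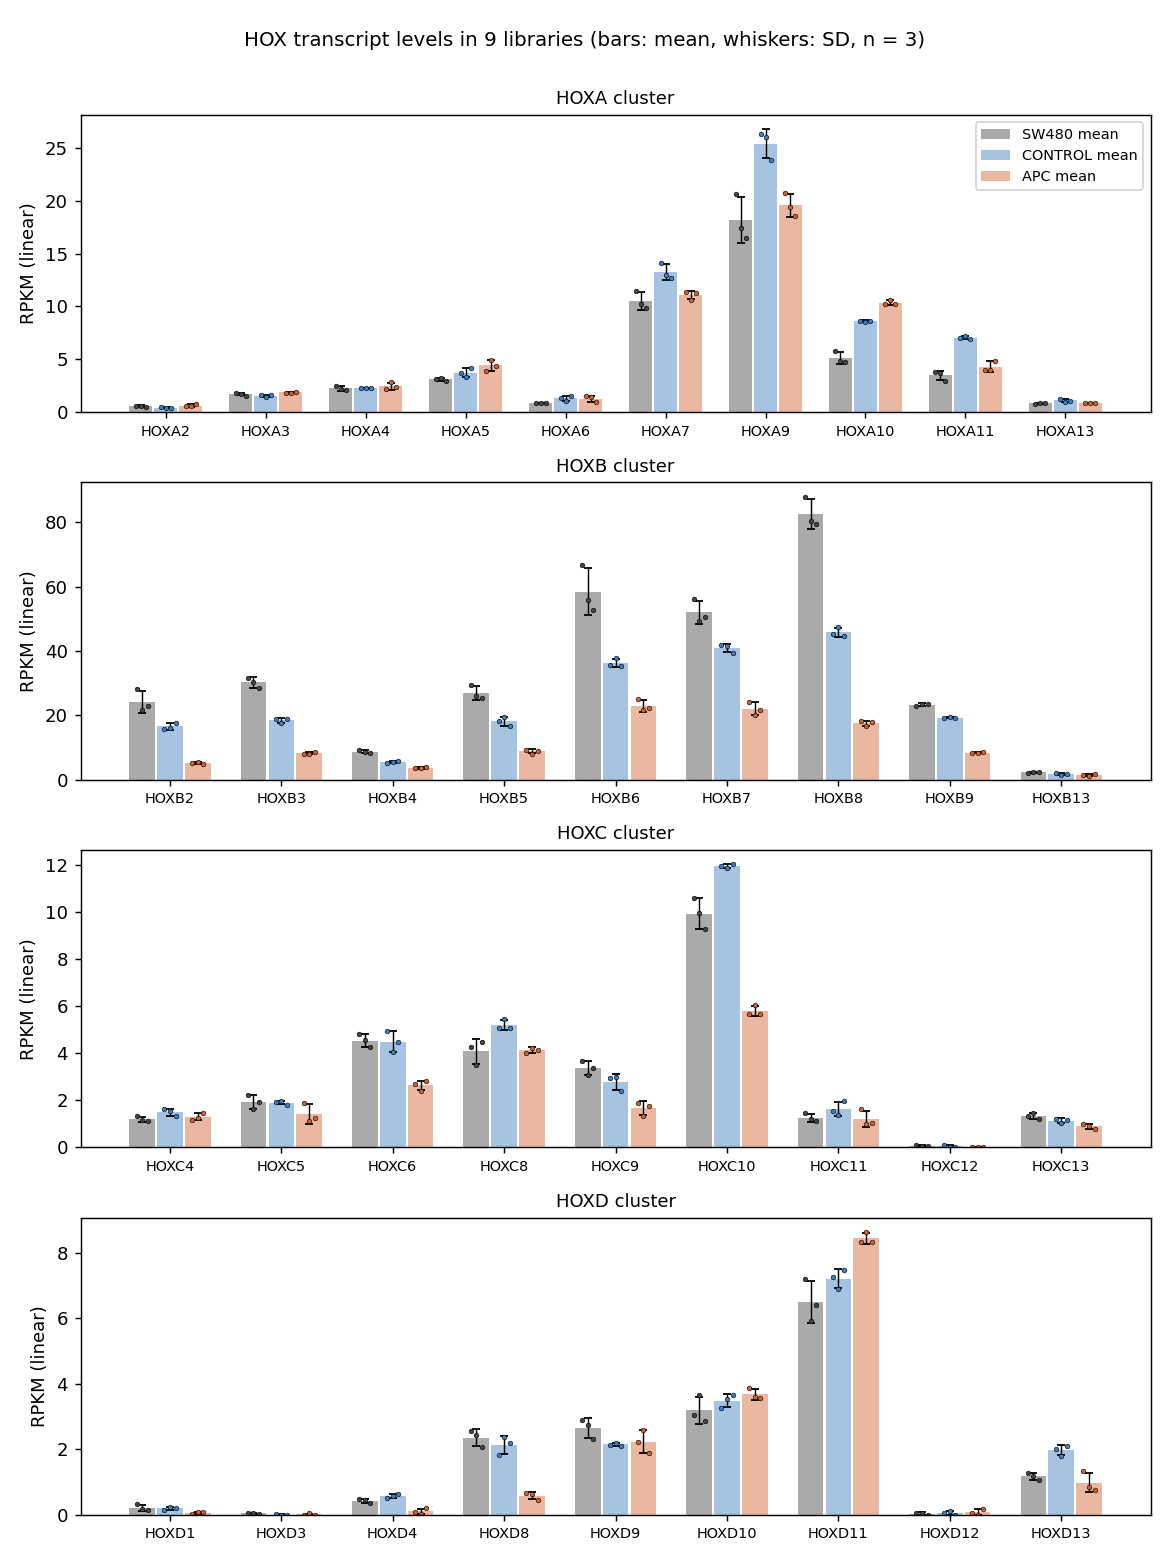
RPKM of HOX genes (linear scale, each cluster with its own axis from 0), in order of position; bars are means, whiskers SD and points the 3 libraries of SW480, CONTROL and APC. HOXB2 to HOXB9 step down from SW480 to CONTROL to APC, HOXA10 steps up, HOXD11 is highest in APC, and HOXC12, HOXD3 and HOXD12 lie near 0 in all 3 lines.

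Counts were tested for 34 of the 38 genes, and 4 did not pass the filter on low counts. Against SW480, 4 HOX genes were higher and 17 lower in APC, and 13 did not pass (edgeR, adjusted p under 0.05 over all genes). Over the 14255 genes tested, 72.5% passed in that comparison, 35.6% higher and 36.9% lower. The share of HOX genes that passed was thus not above that of all genes, and the lower calls made up the larger part. The median log2 fold change of the HOX genes was −0.31, beside −0.01 for all genes, and 10 fell and 1 rose by more than 2-fold, a size that 19.1% of all genes passed. Against CONTROL, 3 were higher and 20 lower in APC and 11 did not pass, where 70.2% of all genes passed, 34.8% higher and 35.4% lower. The median was −0.41, beside −0.01 for all genes, with 9 down and 0 up by more than 2-fold, where the share of all genes was 18.3%. CONTROL itself differed from SW480 in 10 higher and 9 lower HOX genes, where 50.0% of all genes passed, 25.3% higher and 24.7% lower. Its median was 0.03, and 1 gene, HOXA11, passed 2-fold, a size that 4.90% of all genes passed. Groups did not overlap for 23, 25 and 24 of the 34 genes in the 3 comparisons, where the share over all genes was 73.1%, 73.4% and 56.6%. The 3 comparisons share libraries by pairs, so their calls are not independent of each other.

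In the main fit, HOXB was one-sided in each comparison and HOXC in APC against either line. HOXA and HOXD held calls in both directions in the APC comparisons. Under 2 other settings HOXC was not one-sided against SW480, since HOXC4 passed as higher in APC. In HOXB, 9 of 9 genes were lower in APC than in SW480 (median −1.45, 8 by more than 2-fold), 8 of 9 were lower than in CONTROL (median −1.02, 5 by more than 2-fold), and 9 of 9 were lower in CONTROL than in SW480 (median −0.55, none by more than 2-fold). HOXA showed 3 higher, 1 lower and 7 that did not pass of 11 against SW480, and 2 higher and 4 lower against CONTROL, with medians of 0.17 and −0.03. In CONTROL against SW480, HOXA had 7 higher and 0 lower (median 0.44). HOXC had 5 lower and 0 higher of 8 tested in APC against either line (medians −0.47 and −0.41), and HOXD had 1 higher with 2 lower against SW480 and 1 higher with 3 lower against CONTROL, of 6 tested. In CONTROL against SW480, 2 HOXC genes and 1 HOXD gene were higher and 0 were lower. Over all genes 72.5% passed in APC against SW480, 70.2% in APC against CONTROL and 50.0% in CONTROL against SW480. In both APC comparisons only HOXB held a larger share of calls than all genes. In CONTROL against SW480 HOXA and HOXB did. These counts describe the clusters, and no test of one cluster against another was made.

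**Figure D3:**
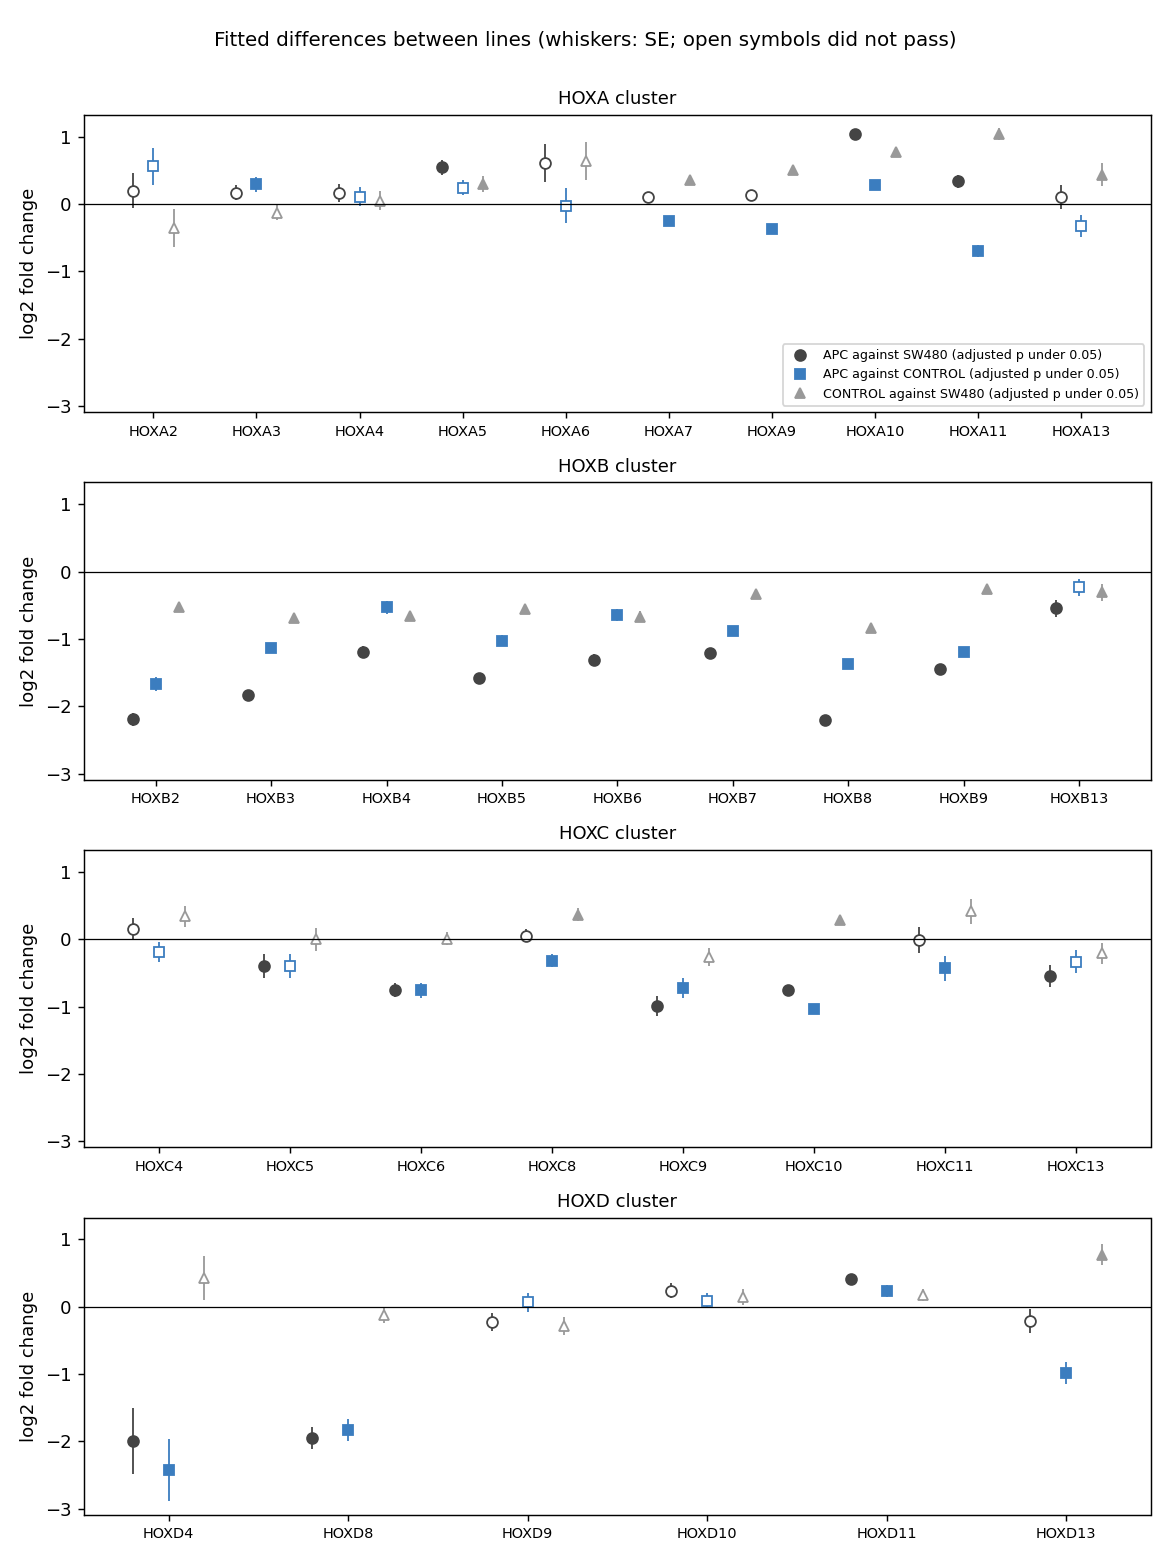
Fitted log2 fold changes of tested HOX genes in 3 comparisons, by cluster and in order of position; whiskers are SE, filled symbols passed the adjusted p threshold of 0.05 and open symbols did not. All HOXB symbols lie below 0, the circles for APC against SW480 from −2.20 (HOXB2 and HOXB8) to −0.54 (HOXB13), while HOXA symbols lie on both sides.

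In HOXB the genes of the anterior end were among those with the largest differences. HOXB2, which acts in patterning of the hindbrain, was at 50.3, 38.7 and 41.2 CPM in SW480, 28.8, 29.5 and 32.2 in CONTROL, and 9.46, 10.0 and 8.94 in APC. All SW480 libraries were above all CONTROL libraries, and these above all APC libraries. The log2 fold change was −2.20 ± 0.10 (SE) in APC against SW480 (edgeR adjusted p = 1.32e-14), −1.67 ± 0.10 against CONTROL (adjusted p = 4.01e-12) and −0.53 ± 0.08 in CONTROL against SW480 (adjusted p = 1.15e-05). Its neighbour HOXB3, another gene of hindbrain and pharyngeal patterning, was at 128, 123 and 117 CPM in SW480, 77.4, 72.5 and 77.5 in CONTROL, and 34.1, 33.4 and 36.0 in APC. The order of the lines was the same and again without overlap. HOXB3 changed by −1.83 ± 0.05 in APC against SW480 (adjusted p = 3.34e-26), by −1.14 ± 0.05 against CONTROL (adjusted p = 9.49e-20) and by −0.69 ± 0.05 in CONTROL against SW480 (adjusted p = 1.62e-14).

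The central genes of the cluster, HOXB4 to HOXB7, showed the same order of the lines, and in APC against either line they differed by less than HOXB2 and HOXB3. HOXB4, known for the expansion of blood stem cells, was at 21.1, 19.5 and 19.0 CPM in SW480, 12.03, 12.6 and 13.1 in CONTROL, and 8.25, 8.44 and 9.47 in APC. Its log2 fold change was −1.19 ± 0.08 in APC against SW480 (edgeR adjusted p = 1.88e-14) and −0.53 ± 0.09 against CONTROL (adjusted p = 5.10e-06). More than 2-fold of change was thus seen against the parental cells and less against the vector line, and CONTROL against SW480 gave −0.66 ± 0.08 (adjusted p = 1.88e-08). HOXB5, which takes part in the development of the enteric nervous system and the lung, was at 60.1, 52.7 and 52.0 CPM in SW480, 37.8, 40.5 and 34.3 in CONTROL, and 19.8, 16.9 and 18.5 in APC. The 3 ranges were again apart, with −1.58 ± 0.07 in APC against SW480 (adjusted p = 2.25e-17), −1.02 ± 0.08 against CONTROL (adjusted p = 1.36e-12) and −0.55 ± 0.06 in CONTROL against SW480 (adjusted p = 4.63e-08).

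HOXB6, the gene with the highest HOX level in APC, was at 125, 105 and 99.7 CPM in SW480, 67.8, 72.3 and 67.1 in CONTROL, and 48.6, 41.2 and 42.3 in APC. SW480 replicate 1 and APC replicate 1 were each the highest of their group, and no groups overlapped. The changes were −1.31 ± 0.09 in APC against SW480 (edgeR adjusted p = 1.06e-07), −0.65 ± 0.09 against CONTROL (adjusted p = 8.05e-05) and −0.67 ± 0.08 in CONTROL against SW480 (adjusted p = 5.96e-05). HOXB7, a gene studied for its effects on cell growth in several cancers, was at 85.4, 75.3 and 77.8 CPM in SW480, 64.4, 64.8 and 61.2 in CONTROL, and 38.4, 31.4 and 33.7 in APC. It changed by −1.20 ± 0.06 in APC against SW480 (adjusted p = 1.05e-16) and by −0.88 ± 0.06 against CONTROL (adjusted p = 2.98e-13). CONTROL lay only a little under SW480 in HOXB7, at −0.33 ± 0.06 (adjusted p = 1.84e-05).

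Towards the posterior end, HOXB8 was at 179, 163 and 164 CPM in SW480, 93.6, 98.5 and 92.4 in CONTROL, and 38.3, 34.6 and 37.1 in APC. The plates of a line lay close together and the lines far apart. HOXB8 changed by −2.20 ± 0.05 in APC against SW480 (edgeR adjusted p = 1.14e-28), by −1.37 ± 0.05 against CONTROL (adjusted p = 3.37e-22) and by −0.83 ± 0.04 in CONTROL against SW480 (adjusted p = 7.62e-17). HOXB9, a gene of thoracic patterning, was at 68.8, 71.2 and 72.02 CPM in SW480, 58.5, 60.4 and 58.9 in CONTROL, and 26.1, 25.7 and 26.0 in APC. CONTROL was here much nearer to SW480 than to APC. The changes were −1.45 ± 0.05 (adjusted p = 5.07e-23), −1.19 ± 0.05 (adjusted p = 2.51e-20) and −0.25 ± 0.05 (adjusted p = 1.93e-05) in the same order. HOXB13, which lies apart from the others at the posterior end and is known as a prostate and hindgut gene, was low, at 7.38 to 8.16 CPM in SW480, 5.28 to 6.93 in CONTROL and 4.40 to 6.08 in APC. It fell by 0.54 ± 0.12 on the log2 scale against SW480 (adjusted p = 2.42e-04), and the −0.23 ± 0.13 against CONTROL did not pass (adjusted p = 0.111). Its −0.31 ± 0.12 in CONTROL against SW480 (adjusted p = 0.0309) did not pass under 6 other settings, with adjusted p up to 0.187.

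**Figure D4:**
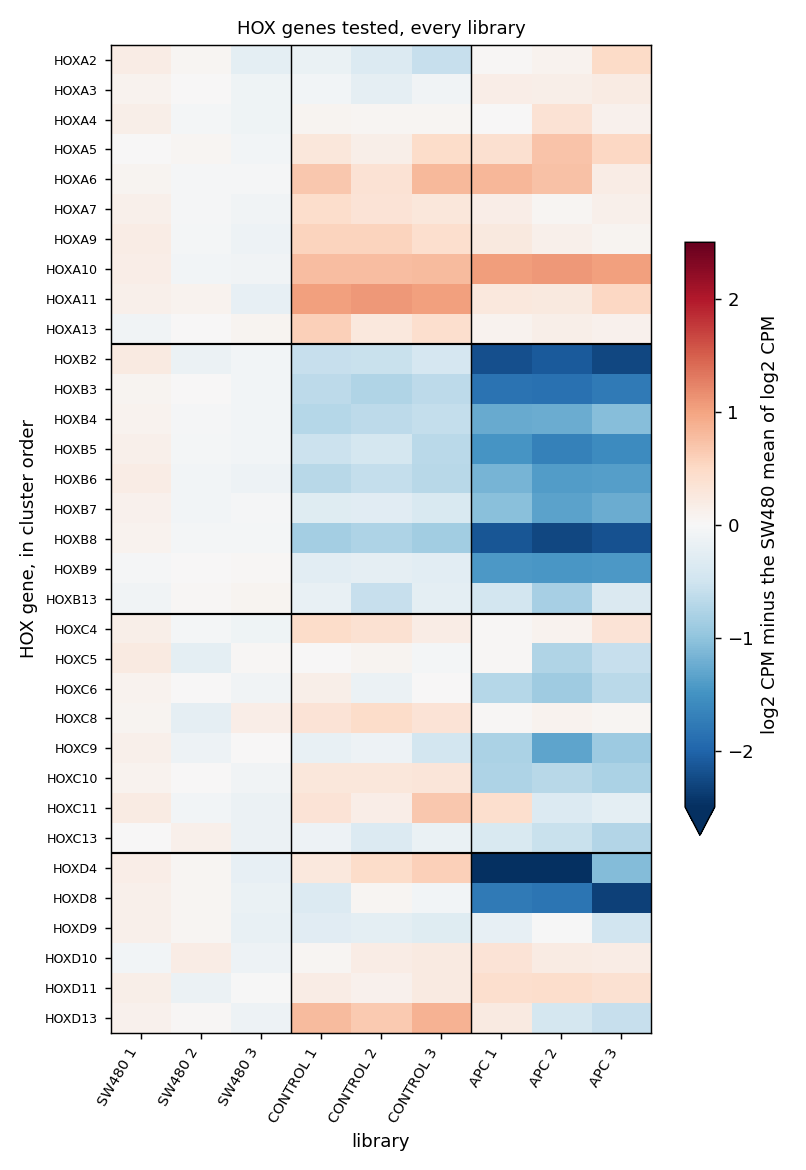
Tested HOX genes in each of the 9 libraries, as log2 CPM minus the gene's mean of log2 CPM over the SW480 libraries, with genes in rows by cluster and position and libraries in columns by line. HOXB2 to HOXB9 form a block of negative values that is deepest in APC, and HOXA10 is positive in CONTROL and APC. HOXD4 lies beyond the lower end of the colour scale in 2 APC libraries.

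In HOXA, the posterior gene HOXA10 was higher in APC than in both other lines. HOXA10, known from uterine development and blood cell formation, was at 16.5, 13.99 and 13.7 CPM in SW480, 25.1, 24.9 and 25.3 in CONTROL, and 30.5, 31.1 and 29.8 in APC. Here SW480 was lowest and APC highest, the reverse of HOXB8. The changes were 1.05 ± 0.07 in APC against SW480 (adjusted p = 4.28e-15), 0.28 ± 0.07 against CONTROL (adjusted p = 3.23e-04) and 0.77 ± 0.07 in CONTROL against SW480 (adjusted p = 1.02e-10). HOXA11, a gene of limb, kidney and uterine development, was at 11.2, 10.9 and 8.86 CPM in SW480, 20.9, 21.8 and 20.8 in CONTROL, and 12.4, 12.1 and 14.7 in APC. CONTROL stood above both other lines, at 1.04 ± 0.09 over SW480 (adjusted p = 8.24e-12), and APC was 0.34 ± 0.10 above SW480 (adjusted p = 0.00191) and −0.70 ± 0.08 against CONTROL (adjusted p = 7.56e-09).

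HOXA2 to HOXA7, HOXA9 and HOXA13 differed by less than 2-fold in each comparison. HOXA9, a regulator of blood progenitors with the highest level of the cluster, was at 38.2 to 47.3 CPM in SW480, 55.6 to 61.2 in CONTROL and 43.4 to 49.3 in APC. It was higher in CONTROL than in SW480 by 0.50 ± 0.07 (edgeR adjusted p = 2.24e-06) and lower in APC than in CONTROL by −0.36 ± 0.07 (adjusted p = 5.60e-05), while the 0.14 ± 0.07 in APC against SW480 did not pass (adjusted p = 0.0786). HOXA7 had the same order of lines. HOXA7 was higher in CONTROL than in SW480 by 0.36 ± 0.07 (adjusted p = 3.44e-05) and changed by −0.25 ± 0.07 in APC against CONTROL (adjusted p = 0.00139). HOXA5, a gene of lung and gut development, was 0.55 ± 0.12 higher in APC than in SW480 (adjusted p = 8.47e-05), and its 0.30 ± 0.12 in CONTROL against SW480 (adjusted p = 0.0334) did not pass under 6 other settings. HOXA3, a gene of pharyngeal organs, was 0.29 ± 0.11 higher in APC than in CONTROL (adjusted p = 0.0192), a call lost without CONTROL replicate 2 and with DESeq2 (adjusted p = 0.0681 in each). HOXA2, HOXA4 and HOXA6 passed in 0 of the 3 comparisons, with mean levels of at most 2.46 RPKM. HOXA13, a gene of the hindgut and digits, passed only in CONTROL against SW480, at 0.44 ± 0.17 (adjusted p = 0.0299), and not under 5 other settings.

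In HOXC, only HOXC10 passed with more than 2-fold of change, and that against CONTROL. HOXC10, a gene of lumbar patterning, was at 23.1, 21.8 and 20.5 CPM in SW480, 26.5, 26.5 and 26.8 in CONTROL, and 12.8, 13.5 and 12.6 in APC. The APC libraries lay well under the others, and CONTROL above SW480. HOXC10 changed by −0.75 ± 0.07 in APC against SW480 (edgeR adjusted p = 7.01e-11), by −1.03 ± 0.07 against CONTROL (adjusted p = 1.11e-14) and by 0.29 ± 0.07 in CONTROL against SW480 (adjusted p = 4.49e-04). HOXC6, which is expressed in mammary and prostate tissue among others, was at 9.94 to 11.1 CPM in SW480, 9.52 to 11.5 in CONTROL and 5.67 to 6.60 in APC. It changed by −0.75 ± 0.11 against SW480 (adjusted p = 1.20e-07) and by −0.76 ± 0.11 against CONTROL (adjusted p = 1.12e-07), and the vector line did not pass against the parental line (0.01 ± 0.09, adjusted p = 0.953). HOXC8, a gene of thoracic patterning, was at 8.89 to 11.6 CPM in SW480, 13.1 to 14.3 in CONTROL and 10.7 to 11.05 in APC, so that CONTROL was the line that stood apart. HOXC9 was lower in APC than in either line (−0.99 ± 0.15 and −0.72 ± 0.16). HOXC13, a gene of hair and nail development, was lower in APC than in SW480 (−0.54 ± 0.16, adjusted p = 0.00373) and did not pass against CONTROL (adjusted p = 0.0769). HOXC4 passed in 0 of the 3 comparisons. Calls on HOXC5 and HOXC11 were close to the threshold: HOXC5 passed at an adjusted p of 0.0495 in APC against SW480 and was lost under 12 of the other settings, and HOXC11 passed at 0.0379 in APC against CONTROL and was lost under 5.

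In HOXD, with 3 of its 9 genes left out by the filter, only HOXD8 met both the level and the fold required for a full account. HOXD8 was at 7.38, 7.02 and 6.02 CPM in SW480, 5.37, 7.0 and 6.44 in CONTROL, and 1.98, 1.91 and 1.34 in APC. SW480 and CONTROL overlapped and APC was well under both. The changes were −1.96 ± 0.16 against SW480 (edgeR adjusted p = 1.24e-12) and −1.83 ± 0.17 against CONTROL (adjusted p = 1.12e-11), while CONTROL against SW480 did not pass (−0.12 ± 0.12, adjusted p = 0.430). HOXD4 fell too (−1.99 ± 0.49, adjusted p = 5.64e-04, and −2.43 ± 0.46, adjusted p = 2.12e-05), from a mean of at most 0.577 RPKM, with 2, 1 and 5 counts in the APC libraries. HOXD11, a gene of forearm and kidney development with the highest level of the cluster, was at 9.64 to 11.7 CPM in SW480, 11.5 to 12.4 in CONTROL and 13.9 to 14.4 in APC. APC was the highest line without overlap, by 0.41 ± 0.09 over SW480 (adjusted p = 9.72e-05) and 0.24 ± 0.09 over CONTROL (adjusted p = 0.0148). The second of these calls was lost without CONTROL replicate 2 (adjusted p = 0.0510). HOXD13, a gene of digit and hindgut development, was highest in CONTROL, at 0.77 ± 0.16 over SW480 (adjusted p = 1.13e-04), and APC was −0.99 ± 0.16 against CONTROL (adjusted p = 2.83e-06). HOXD9 and HOXD10 passed in 0 of the 3 comparisons.

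The 4 genes that did not pass the filter had few counts. HOXC12 had 2, 1 and 1 counts in SW480, 2, 0 and 0 in CONTROL, and 0 in each APC library. HOXD1 had 13, 7 and 6 counts in SW480, 6, 9 and 9 in CONTROL, and 1, 3 and 3 in APC. The APC libraries lay below all others in HOXD1, and in the edgeR fit without the filter it passed at −1.74 ± 0.60 against SW480 (adjusted p = 0.00720) and −1.68 ± 0.61 against CONTROL (adjusted p = 0.0115). HOXD3 had 2, 3 and 1, then 1, 0 and 0, then 0, 2 and 0 counts. HOXD12 had 1, 1 and 0, then 1, 2 and 0, then 1, 0 and 3 counts. A count of 0 allows a level of up to 3 counts, for counting error only. HOXC12, HOXD3 and HOXD12 did not pass in that fit, with adjusted p from 0.0873 to 0.802, so differences in these 3 genes were not detectable at this depth.

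Position along the cluster was described by 3 ranges of paralogue groups. In groups 1 to 3, 0 genes were higher and 3 lower of 5 tested in APC against SW480 (median −0.99). Groups 4 to 8 had 1 higher and 9 lower of 15 (median −0.75), and groups 9 to 13 had 3 higher and 5 lower of 14 (median −0.11). Over all genes 72.5% passed in that comparison, so none of the 3 ranges held a larger share of calls than the background. Against CONTROL, the 3 ranges had 1 higher and 3 lower of 5, 0 and 10 of 15, and 2 and 7 of 14. Their medians were −1.14, −0.53 and −0.35. There 70.2% of all genes passed, 34.8% higher and 35.4% lower. Only groups 1 to 3 held a larger share of calls, over 5 genes. In CONTROL against SW480 the medians were −0.36, 0.01 and 0.23. HOXB held 2 of the 5, 5 of the 15 and 2 of the 14 genes, so its low values enter each range with a different weight, and position was not tested apart from cluster.

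Within paralogue groups the leading gene differed between the lines in some cases. Group 9 summed to 47.6 RPKM in SW480, 49.7 in CONTROL and 31.8 in APC. HOXB9 made up 49.1%, 38.9% and 26.4% of it, and HOXA9 38.2%, 51.1% and 61.4%. The gene with the largest share was thus HOXB9 in SW480 and HOXA9 in the other lines. In group 10, HOXC10 made up 54.4%, 49.7% and 29.2% and HOXA10 28.1%, 35.8% and 52.2%, so that HOXC10 led in SW480 and CONTROL and HOXA10 in APC. Group 8 summed to 89.1, 53.2 and 22.3 RPKM, and HOXB8 made up 92.8%, 86.2% and 78.8% of it.

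HOXA10 and HOXD11 were the 2 HOX genes that passed as higher in APC than in both other lines, and for each of them the RefSeq promoter table (build GRCh38.p14) holds a start site whose upstream window has no annotated exon. The 250 bases before that start are shown 5′ to 3′ on the gene's strand, because these genes ran against the direction of most HOX genes in APC. HOXA5 missed the threshold against CONTROL narrowly (edgeR adjusted p = 0.0503) and passed it under 8 other settings. Capitals mark each CG pair. The HOXA10 window is chr7:27174321-27174570 on the minus strand, with 24 CG pairs, and the HOXD11 window is chr2:176107030-176107279 on the plus strand, with 23.
HOXA10: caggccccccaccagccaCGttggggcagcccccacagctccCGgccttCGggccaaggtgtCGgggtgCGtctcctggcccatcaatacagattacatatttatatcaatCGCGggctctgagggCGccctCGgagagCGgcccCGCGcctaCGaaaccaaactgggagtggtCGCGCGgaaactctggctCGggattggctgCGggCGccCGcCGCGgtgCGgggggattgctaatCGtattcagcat
HOXD11: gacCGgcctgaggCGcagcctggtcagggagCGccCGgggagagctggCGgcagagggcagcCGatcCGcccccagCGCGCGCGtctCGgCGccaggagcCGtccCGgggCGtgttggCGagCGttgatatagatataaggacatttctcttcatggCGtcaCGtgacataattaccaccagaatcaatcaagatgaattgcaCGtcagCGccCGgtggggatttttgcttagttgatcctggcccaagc
The table matched 19 of the 38 genes with 26 windows (9 HOXA, 0 HOXB, 2 HOXC and 8 HOXD genes). The median of these windows was 19.5 CG pairs, beside 11 over the 35116 windows of all genes. They are not 26 distinct promoters, since HOXA3 and HOXA10 have several windows and HOXC4 and HOXC5 share the same one. Another HOXA10 window, which annotated exons touch, has 19 CG pairs. Motifs were searched on both strands without regard to overlap with one another. The TCF/LEF letters ATCAAAG or TTCAAAG, bound by the partners of beta-catenin, were in 1 of the 26 HOX windows and in 5.94% of all windows. The CDX letters CCATAAA were in 1 of 26 and in 2.295% of all. The PBX-HOX letters TGATTNAT were in 2 of 26 and in 2.48% of all, and 1 of the 2 is the HOXD11 window above, where the plus strand reads ATCAATCA. A match describes letters in a window and is not a site of binding.

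Noncoding genes listed for the clusters were counted together. LOC100133091, a tested member of this list, lies on chromosome 7 outside the clusters and did not pass in any comparison. Of 12 tested, LOC100133091 included, 1 was higher and 5 lower in APC against SW480, and 1 higher and 8 lower against CONTROL. In CONTROL against SW480, 5 were higher and 1 lower. These 6, 9 and 6 calls of 12 stand beside 72.5%, 70.2% and 50.0% of all genes. HOXB-AS3, transcribed across HOXB5 and HOXB6 from the other strand, was at 32.3, 34.2 and 32.5 CPM in SW480, 25.2, 25.5 and 23.5 in CONTROL, and 7.92, 8.44 and 9.53 in APC. It was highest in SW480 and lowest in APC, like the HOXB genes, with −1.94 ± 0.08 in APC against SW480 (edgeR adjusted p = 1.82e-21) and −1.52 ± 0.08 against CONTROL (adjusted p = 6.73e-18). HOXA-AS4, antisense to HOXA10, was at 10.99, 8.57 and 8.0 CPM in SW480, 14.7, 16.3 and 16.5 in CONTROL, and 22.9, 23.3 and 22.9 in APC. Like HOXA10 it was lowest in SW480 and highest in APC, by 1.33 ± 0.09 (adjusted p = 4.66e-15). HOTAIR, a long noncoding RNA of the HOXC cluster known for its binding to Polycomb complexes, stood at means of 17.2, 25.8 and 11.2 CPM, and HOXD-AS1 at 17.6, 24.2 and 8.47 CPM, both highest in CONTROL. The strand used in counting is not given in the sources used here, so reads from a HOX gene and its antisense partner cannot be told apart where they overlap. Overlap was measured only between GENCODE 29 models matched to counted transcripts. Among these, antisense exons covered 74.7% of HOXA7, 23.9% of HOXA10, 10.6% of HOXA6, 10.0% of HOXB6 and 3.58% of HOXB5 and parts of 2 further genes. Antisense models without a counted transcript were left out, so antisense overlap in the other HOX genes is not excluded. HOXC4, HOXC5 and HOXC6 shared 31.8%, 22.0% and 16.5% of their exon bases with each other on the same strand, which leaves their values uncertain. Their models had 1524, 1389 and 2943 bases, and the counted transcripts 2300, 1640 and 2072. These percentages are thus shares of model bases, not of the counted transcripts or of reads.

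Coding genes next to the clusters were examined in the same way, and of 5 tested at HOXB 1 was higher and 3 were lower in APC against SW480. SKAP1, an adaptor gene of T-cell signalling that lies next to the anterior end of HOXB, was at 35.8, 34.9 and 35.0 CPM in SW480, 28.9, 28.3 and 27.5 in CONTROL, and 6.27, 6.19 and 7.25 in APC. It changed by −2.42 ± 0.08 in APC against SW480 (edgeR adjusted p = 3.60e-24), by −2.10 ± 0.08 against CONTROL (adjusted p = 6.18e-22) and by −0.32 ± 0.06 in CONTROL against SW480 (adjusted p = 3.94e-05), so its order of lines was that of HOXB2 to HOXB9. Farther along on the same side, CBX1, a heterochromatin protein gene, was lower in APC than in SW480 by less (−0.61 ± 0.04), and on the other side ATP5G1, a subunit gene of the ATP synthase, was higher (0.77 ± 0.04). Of 5 flanking genes tested at HOXA, 1 was higher and 4 lower against SW480, of 8 at HOXC, 0 and 5, and of 4 at HOXD, 2 and 0. Over all genes 35.6% were higher and 36.9% lower in that comparison. Against CONTROL, 0 were higher and 4 lower at HOXA, 1 and 3 at HOXB, 0 and 8 at HOXC, and 2 and 0 at HOXD. The shares over all genes were 34.8% and 35.4%. In CONTROL against SW480 the counts were 4 and 0, 1 and 1, 6 and 0, and 2 and 0 in the same order, beside 25.3% and 24.7%. These lists hold few genes and were not tested against the shares of all genes. CALCOCO1, next to HOXC13, fell by 1.48 ± 0.06 on the log2 scale against SW480 (adjusted p = 7.62e-22).

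Genes that act with or on HOX genes were counted by list. Of 7 TALE cofactor genes tested, 1 was higher and 5 were lower in APC against SW480, and 1 higher and 3 lower against CONTROL, beside 72.5% and 70.2% of all genes passing in either direction. MEIS3 was at 45.5, 43.1 and 40.7 CPM in SW480, 23.04, 25.6 and 24.0 in CONTROL, and 5.44, 5.61 and 5.84 in APC, without overlap. It changed by −2.93 ± 0.08 in APC against SW480 (edgeR adjusted p = 3.58e-26) and by −2.10 ± 0.09 against CONTROL (adjusted p = 7.99e-21). PBX3, a direct partner of HOX proteins, was lower in APC than in either line (−1.50 ± 0.09 and −1.73 ± 0.09), from means of 19.0 and 22.2 CPM to 6.71 CPM. CDX2 was at 28.9, 27.4 and 24.9 CPM in SW480, 26.0, 22.7 and 25.2 in CONTROL, and 15.6, 14.9 and 14.3 in APC. CDX2 was lower in APC than in both, by −0.86 ± 0.07 (adjusted p = 3.07e-12) and −0.73 ± 0.08 (adjusted p = 2.67e-10), and the −0.13 ± 0.07 in CONTROL against SW480 did not pass (adjusted p = 0.109).

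Chromatin regulators of HOX genes mostly differed by less than 2-fold. Of 17 Polycomb genes tested, which encode repressors of HOX clusters, 3 were higher and 10 lower in APC against SW480, 0 of them by more than 2-fold, and 5 were higher and 6 lower against CONTROL. EZH2, the methyltransferase of Polycomb complex PRC2, was at means of 96.7, 113.7 and 69.0 CPM in SW480, CONTROL and APC (−0.49 ± 0.05 and −0.72 ± 0.05 in APC), and PHC1 was higher in APC than in both (0.51 ± 0.04 against either). Of 13 genes of MLL complexes and other activators, 2 were higher and 8 lower against SW480, 0 of them by more than 2-fold. Against CONTROL, 4 were higher, 1 of them by more than 2-fold, and 6 were lower, 0 by more than 2-fold. AFF1, among the lower genes, changed by −0.75 ± 0.05 against SW480 (edgeR adjusted p = 2.53e-15). For both lists the calls, 13 and 11 of 17 and 10 and 10 of 13, are near the 72.5% and 70.2% of all genes.

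Retinoic acid induces anterior HOX genes in embryos, and several genes of its pathway differed by more than 2-fold. Of 9 tested, 5 were higher and 3 lower in APC against SW480, and likewise 5 and 3 against CONTROL, beside 72.5% and 70.2% of all genes passing. ALDH1A3, which makes retinoic acid, stood at means of 148 CPM in SW480, 113 in CONTROL and 1022 in APC (2.79 ± 0.04 against SW480, edgeR adjusted p = 9.75e-35). DHRS3, which reduces retinaldehyde to retinol, rose from 9.95 and 14.4 CPM to 103 CPM. The relation of these levels to the HOX genes was not tested.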

How the data were processed

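Polyadenylated RNA was sequenced from 9 libraries, 3 of each line. The submitters' processing notes name Trimmomatic, TopHat and GATK and the build hg19. Tool versions, the read counter and its strand setting were not given in the sources used here. Per the file headers, the deposited counts are whole reads per RefSeq transcript before any normalisation. The authors also deposited RPKM derived from these counts: each equalled the count divided by transcript length and a constant per library, for 100% of values within a relative tolerance of 0.0001. Of 39276 transcripts, 1 per gene was kept, that with the highest total count, and 62 of 65 gene names altered to dates were repaired. For all 38 HOX genes the deposited gene-level RPKM table holds the same transcript.

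The main test was edgeR 4.0.16 (R 4.3.3; TMM, filterByExpr by group, robust glmQLFit, glmQLFTest) on the counts of all 9 libraries in 1 fit with group as the only term, with Benjamini-Hochberg adjustment over the 14255 genes tested and a threshold of 0.05. The edgeR steps were run on simulated counts in which far fewer genes changed than passed here. That run does not test the scaling in data like these. Replicates correlated at 0.995 or more within a group and at 0.982 or less between groups, and no pair of libraries agreed within sampling noise (chi-square per degree of freedom 1.34 to 5.38). Library totals are given with the results, and 3 counts mark the level a count of 0 allows. Other settings tried were testing without the low-count filter, scaling by RLE, DESeq2 1.42.0, summing each gene's transcripts, limma 3.58.1 on log2(RPKM + 1) and log2(RPKM + 0.1), cluster sums from the gene-level table, the 6 libraries of a comparison only, the replicate number as a block, and leaving out each library. Another transcript for HOX genes with several was added after seeing the data. Values in every library are given for the 13 HOX genes with at least 1 CPM in the highest line and more than 2-fold of change past the threshold in a comparison, for the other tested HOX genes ranges and counts, and from each other list up to 3 genes with the lowest adjusted p. SKAP1, HOXB-AS3, HOXA-AS4, MEIS3 and CDX2 are given per library because results beside them refer to them, a choice made after their values were seen. A few single-gene results under these rules are not reported here, in text or figures, while counts, medians and sums cover all genes of a list. The HOX genes and the lists were chosen with earlier results of these data known. Exon overlaps come from GENCODE 29 models matched to counted transcripts and promoter windows from RefSeq on GRCh38.p14, and no coordinates were converted.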

Additional observations from a re-analysis of the deposited data

How the results depend on the processing

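Over 102 single-gene results (34 HOX genes in 3 comparisons) and 1835 alternative values, 1745 kept their side of the threshold. A call was lost in 37 and gained in 53, and 0 called values reversed. Values that passed in neither fit were counted as kept whatever their direction. The number of HOX genes higher in APC than in CONTROL, 3 as reported, was 5 with limma on log2(RPKM + 1) and 5 on log2(RPKM + 0.1), and ranged from 1 to 4 when a library was left out. The 1 was found without CONTROL replicate 2, where HOXA3 and HOXD11 lost their calls. HOXB2 to HOXB9 kept their calls under each alternative run. All other counts of HOX genes, and of all genes, stayed within 1.5 times the reported count: for all genes in APC against SW480 10335 as reported, 9583 with DESeq2 and 9916 to 10389 with a library left out. Replicate numbers did not pair the samples (correlations of −0.07 to 0.11 between same-numbered libraries). With the replicate number as a block, 10297, 9993 and 7109 genes passed in APC against SW480, APC against CONTROL and CONTROL against SW480, and 5 higher with 17 lower, 3 with 21 and 11 with 9 HOX genes. With the transcript added after seeing the data, HOXC4 was higher in APC than in SW480 (0.54, adjusted p = 0.0116 in edgeR). HOXC4 also passed as higher in that comparison with counts summed over transcripts (edgeR adjusted p = 0.0430). Other scaling moved the median of all genes by at most 0.03 on the log2 scale. Depth limits HOXC12, HOXD1, HOXD3, HOXD4 and HOXD12 most, and HOXD1 was called lower in APC than in both lines without the filter.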
